A study of Mus musculus with 2 samples.

Results

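The region described here is a stretch of mouse chromosome 4 that was read from the promoter of Jun by 4C-seq. It runs from position 92721073 to 94101072 in mm9, which is 620 to 2000 kb from the viewpoint at 94721073, on the side of lower coordinates. The rule for its members uses position and copy number and no read value, and the interval was chosen with earlier results of these data known. They are the 4360 DpnII fragment ends in this interval whose sequence had 1 copy in the genome, out of 496746 such ends in the Jun library and 921359 in both libraries. The series holds 1 library with a viewpoint at the start site of Jun and 1 with a viewpoint at that of Ccl2. Both came from bone marrow-derived macrophages (BMDMs) of strain C57BL/6 at day 7 of differentiation, and both are labelled UT, read here as untreated. No agent or allele is named for either. The number of mice is not given in these sources. The files hold ligated genomic DNA, so markers of the cell type were not measured.

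In 4C-seq, cross-linked chromatin is cut and ligated, and an inverse PCR from 1 viewpoint recovers what was joined to it. A read on a fragment end thus counts a ligation between that end and the viewpoint. As background, contacts fall with distance along a chromosome and are more frequent within a topologically associating domain than across its borders. Beyond such a domain, single contacts are few and spread thinly, and gene-poor chromatin tends to meet other gene-poor chromatin. Jun encodes a protein that makes up AP-1 together with a partner such as Fos, a transcription factor that macrophages use in their early response to stimuli.

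The name of the stretch rests on gene order. In GRCm38.p6 the protein-coding genes met from Jun towards lower coordinates are Mysm1, Eqtn, Tek, Lrrc19, Ift74, Gm12657, Plaa and Caap1, followed by Tusc1, Izumo3 and Elavl2. Mysm1 encodes a histone H2A deubiquitinase, Tek an angiopoietin receptor, Ift74 a protein of intraflagellar transport, and Elavl2 a neuronal RNA-binding protein. Between Caap1 and Tusc1 the annotation lists 12 genes, none of them protein-coding: 4 long non-coding RNAs, 5 pseudogenes and 3 small nuclear or nucleolar RNAs. All 11 genes of the list fixed for naming were found in that table. Its positions are not those of mm9, so which of these genes lie inside the stretch was not analysed here.

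The bait and the gene next to the stretch are shown by the 250 bases before their annotated starts (RefSeq, GRCm38.p6, both on the minus strand, 5′ to 3′), since cut sites set where a ligation can be seen. Jun is at chr4:95052223-95052472 and Caap1 at chr4:94556797-94557046 in that build, which must not be set against the mm9 positions. Capitals mark GATC, the site of DpnII, and GTAC, the site of Csp6I, which the labels write as Csp61.
Jun: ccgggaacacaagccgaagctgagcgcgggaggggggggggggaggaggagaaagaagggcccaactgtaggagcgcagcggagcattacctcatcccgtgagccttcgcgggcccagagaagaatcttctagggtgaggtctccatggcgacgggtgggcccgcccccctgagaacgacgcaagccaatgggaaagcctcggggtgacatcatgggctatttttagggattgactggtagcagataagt
Caap1: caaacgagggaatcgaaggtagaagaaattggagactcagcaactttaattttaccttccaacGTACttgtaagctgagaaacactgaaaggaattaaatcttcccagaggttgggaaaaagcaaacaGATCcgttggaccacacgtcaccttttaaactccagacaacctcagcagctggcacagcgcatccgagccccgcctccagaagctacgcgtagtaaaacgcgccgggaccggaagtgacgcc
Both motifs read the same on the 2 strands. The window of Jun holds neither, and that of Caap1 holds 1 GATC and 1 GTAC. Of 32851 such windows in the table, 41.9% hold GATC and 31.5% hold GTAC.

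The Jun library held 1652054 reads on unique ends, of which 1098887 lay at least 5 kb from the viewpoint. The end with the most reads, whose position is taken as the viewpoint, held 28.0% of the reads on unique ends. The Ccl2 library held 1248937 reads on unique ends. With 1 library per viewpoint there is no replicate spread and no test. Intervals are 95% intervals for counting error within 1 library, and PCR copies of a molecule count as separate reads. The intervals treat ends as independent, so they leave out any clustering of read ends along the chromosome.

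The first question was whether the Jun promoter was joined to this stretch more often than to the distant chromosome. Of its 4360 unique ends, 146 had at least 1 read, which is 3.35% (exact binomial interval 2.83 to 3.93%). Among the 483533 ends farther than 2 Mb on either side, 5620 had a read, or 1.16% (1.13 to 1.19%). The share in the stretch was therefore 2.88 times that background (log-normal interval 2.45 to 3.39). The stretch held 5226 reads, 0.476% of those at least 5 kb from the viewpoint. That is 1.20 reads per unique end, against 0.476 beyond 2 Mb.

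The background itself varied along the chromosome. On the lower side alone, 0.919% of ends beyond 2 Mb had a read (0.884 to 0.955%), against 1.49% for the higher side (1.44 to 1.55%). The 3 Mb next to the stretch, from 2 to 5 Mb on the lower side, had a read on 53 of 9067 ends, or 0.585% (0.438 to 0.764%). Against these nearest neighbours the stretch stood at 5.73 times (4.19 to 7.83), a comparison chosen after the values were seen. On the higher side, 2.79% of ends from 2 to 5 Mb had a read (2.48 to 3.12%). Against all ends from 2 to 10 Mb on both sides, the stretch stood at 1.91 times (1.61 to 2.27). Laid end to end beyond 2 Mb, 104 blocks of the same 1380 kb length with at least 2000 unique ends had shares from 0.178 to 3.18%, with a median of 0.964%. None of these 104 blocks exceeded the stretch. The highest lay on the higher side, at 3380 to 4760 kb from Jun. Its 3.18% falls inside the counting interval of the stretch (2.83 to 3.93%), so these 2 could not be told apart.

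The second question was how contact changed with distance, and it did not fall steadily. On the lower side, 17.0% of ends had a read from 300 to 500 kb (14.2 to 20.1%, 642 ends) and 9.78% from 500 to 620 kb (7.30 to 12.8%, 491 ends). Inside the inner limit the share was lower, though classes this wide do not place the change at the limit of the stretch. In its 4 classes of 345 kb, counted outward from Jun, it was 2.20% (1.48 to 3.14%, 29 of 1318 ends), 2.89% (1.94 to 4.13%, 29 of 1003), 4.99% (3.74 to 6.51%, 51 of 1022) and 3.64% (2.57 to 4.98%, 37 of 1017). Outside the outer limit it was 1.02% from 2000 to 3000 kb (0.688 to 1.45%) and 0.376% from 3000 to 5000 kb (0.238 to 0.563%). From 5000 to 10000 kb it was higher again, at 1.80% (1.60 to 2.01%). The class nearest to Jun thus had the lowest share of the 4. The intervals treat ends as independent, though the share varied among 60 kb windows of the stretch from 0.472 to 9.26%. Whether the order of the classes holds in another library was not tested.

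Over 690 kb each, the inner part of the stretch had a read on 58 of 2321 ends (2.50%, 1.90 to 3.22%) and the outer part on 88 of 2039 (4.32%, 3.48 to 5.29%). The outer part stood at 1.73 times the inner part (1.25 to 2.39). In reads per unique end the parts had 0.903 and 1.53. The 8 unique ends nearest to the 2 limits, 2 inside and 2 outside each, were all without a read, the closest being at 94101041 inside and 94101121 outside the inner limit.

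**Figure D1:**
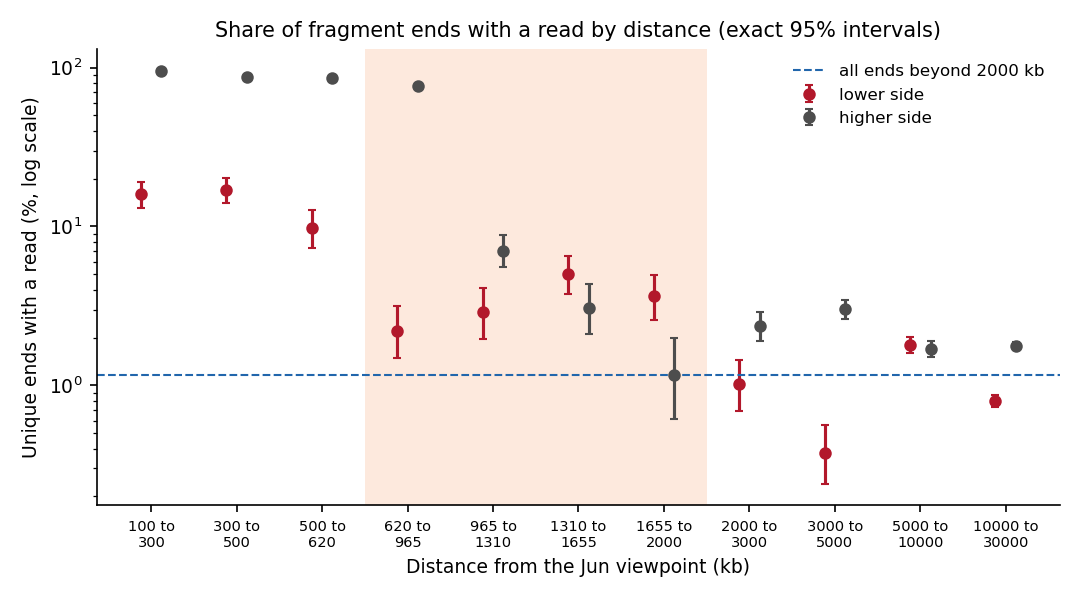
Percentage of unique fragment ends with a read (log scale) against distance class from the Jun viewpoint in kb, for the lower side (red) and the higher side (grey), with exact 95% intervals for counting error in 1 library. The shaded classes are the stretch and its mirror image: on the lower side the share is 2.20% in the nearest class and 4.99% in the third, while on the higher side it falls from 76.8% to 1.16%, and the dashed line is the 1.16% beyond 2000 kb.

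The higher side of Jun at the same distances behaved otherwise. From 620 to 965 kb, 959 of 1248 ends had a read there (76.8%, 74.4 to 79.2%), against 29 of 1318 in the stretch. In the next class the higher side had 7.05% (5.56 to 8.80%) and the lower side 2.89%. Over the outer 690 kb the order was turned: the higher side had a read on 44 of 2132 ends (2.06%, 1.50 to 2.76%) against 88 of 2039 on the lower side, 2.09 times as large a share (1.46 to 2.99). From 1655 to 2000 kb the higher side, at 1.16% (0.618 to 1.97%, 13 of 1123 ends), was at the level found beyond 2 Mb, while the stretch had 3.64%. That share did not hold out to the outer limit. From 1760 to 2000 kb the stretch had 11 of 644 ends read (1.71%, 0.856 to 3.04%), an interval that includes the level beyond 2 Mb.

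The Ccl2 promoter on chromosome 11 gave a like picture on its own lower side. From 620 to 2000 kb, 225 of 5249 unique ends had a read (4.29%, 3.75 to 4.87%), against 1.47% beyond 2 Mb (1.43 to 1.51%). That is 2.91 times its own background (2.56 to 3.32), where the Jun stretch stood at 2.88 times. Its 4 classes of 345 kb had 1.87%, 4.12%, 7.56% and 4.26%, so there too the nearest had the lowest share and the third the highest. The higher side of Ccl2 did not share this pattern. There 488 of 4858 ends had a read (10.0%, 9.21 to 10.9%), and the classes fell outward from 19.2% to 10.5%, 7.08% and 3.57%. The libraries differ in viewpoint, chromosome and depth, and the difference between them was not tested.

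The third question was where in the stretch the contacts lay. In windows of 20 kb the share of ends read ran from 0 to 13.7%. Whether that spread exceeds counting error was not tested. A window of 20 kb was called where at least 20 of its ends were unique, at least 3 had a read and the share was at least 3 times that beyond 2 Mb (3.49%). Of 69 windows, 25 were called (36.2%, 25.0 to 48.7%), against 7.76% of the 7091 windows beyond 2 Mb. The limit of 3.49% lies close to the share of the whole stretch, 3.35%. Many windows could thus pass it with evenly spread contacts, and the count does not show uneven placement. The count was 15 when a read end needed at least 10 reads, 14 with the background taken from 2 to 10 Mb, 13 with fragments that the second cutter cuts, and 13 of 138 with windows of 10 kb. The share of windows called beyond 2 Mb was not computed under these settings, so these counts cannot be set against the 7.76%. These 25 windows held 105 of the 146 ends with a read and 73.8% of the reads. Since windows were called for their ends with a read, these high parts follow in large measure from the calling. 10 of them lay among the 34 windows that end within the inner 690 kb, and 15 among the other 35. In the stretch 13 windows had no read at all (18.8%), against 56.8% beyond 2 Mb, and 5 had 6 or more ends with a read (7.25%, against 1.14%).

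The densest place was at 1700 to 1760 kb from Jun, positions 92961073 to 93021072. There 20 of 216 ends had a read (9.26%, 5.75 to 13.9%), with 997 reads, and 3 called windows touched. The window at 93001073 to 93021072 had 10 of 73 ends read (13.7%, 6.77 to 23.8%) with 419 reads, and its neighbour at 92981073 to 93001072 had 7 of 63 (11.1%, 4.59 to 21.6%) with 431 reads. The window at 93161073 to 93181072, at 1540 to 1560 kb, had 7 of 104 ends read (6.73%). That at 93321073 to 93341072, at 1380 to 1400 kb, had 6 of 72 (8.33%), and that at 93081073 to 93101072, at 1620 to 1640 kb, had 5 of 45 (11.1%). All of these lie in the outer part of the stretch. The windows named here and below were picked for their ends with a read, so their intervals do not bound the share in them.

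In the inner part, the window at 93661073 to 93681072, at 1040 to 1060 kb, came first with 6 of 60 ends read (10.0%, 3.76 to 20.5%). The windows at 93621073 to 93641072, 93581073 to 93601072, 93801073 to 93821072 and 93961073 to 93981072 each had 4 ends read, among 61, 64, 76 and 81 unique ends. Ties were ordered by reads, and 3 further called windows with 4 ends read, at 1020 to 1040, 1400 to 1420 and 1440 to 1460 kb, had 100, 45 and 107 reads and fall outside the 10 named. With 4 ends or fewer in a window the intervals are wide, from 1.82 to 15.9% for the first of these, so their order is not settled.

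**Figure D2:**
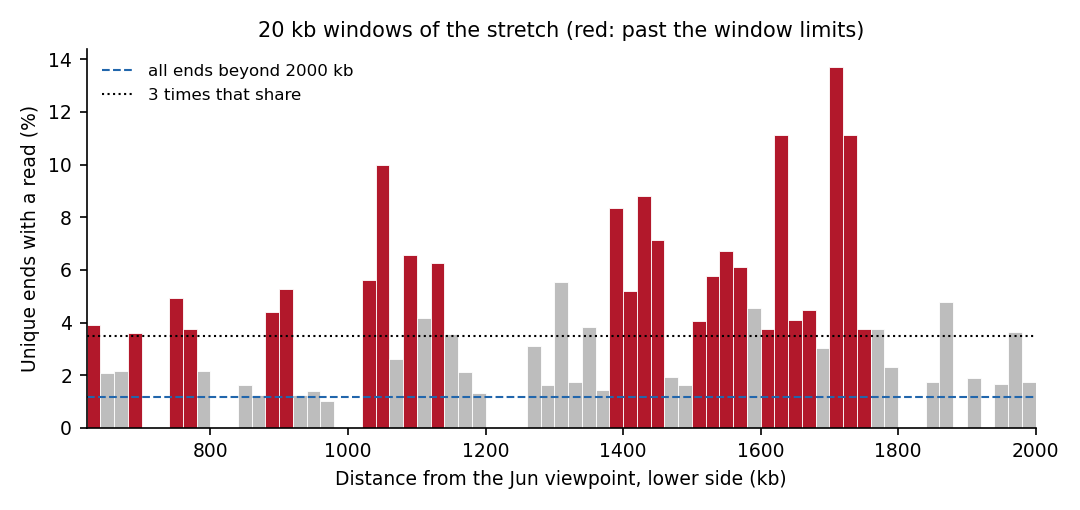
Percentage of unique ends with a read in each of the 69 windows of 20 kb, against distance from the Jun viewpoint in kb. Red bars are the 25 called windows, grey bars above the dotted line (3.49%) have fewer than 3 ends with a read, and the dashed line is the 1.16% beyond 2000 kb. The tallest bar, 13.7%, stands at 1700 to 1720 kb, and bars of 11.1% stand at 1720 to 1740 kb and at 1620 to 1640 kb.

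On a wider scale of 60 kb, the longest run of windows at 2 times the background or more reached from 1280 to 1760 kb, positions 92961073 to 93441072. It is 34.8% of the length of the stretch and held 79 of its 146 ends with a read (54.1%) and 2954 of its 5226 reads. In it 5.36% of 1474 ends had a read. A shorter run at 980 to 1160 kb had 23 of 495 ends read (4.65%). Past 1760 kb the coverage was thin again, with 11 of 644 ends read up to 2000 kb (1.71%, 0.856 to 3.04%), an interval that includes the background of 1.16%. These runs were drawn after the values were seen and serve as a description.

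The longest runs of unique ends with no read were short beside the stretch. One of 228 ends, from 93460433 to 93525137 (1196 to 1261 kb), lay just on the near side of the long covered run. In an interval of that size fixed beforehand, a count of 0 would allow a share of up to 1.32%. The next held 202 ends from 93877057 to 93930529 (791 to 844 kb, up to 1.49%), and the third 192 ends from 92866001 to 92933521 (1788 to 1855 kb, up to 1.56%). The runs were picked for having no read, so these limits do not bound the share in them. Even for intervals fixed beforehand, such limits lie above the 1.16% beyond 2 Mb. Whether the share in the 3 runs was lower than that background could not be told.

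The fourth question was how the reads were shared among the ends. The 146 ends with a read had 1 to 175 reads, with a median of 24 and quartiles of 7 and 51.5. Beyond 2 Mb the median was 28, the quartiles 10 and 60 and the highest 269. A read end of the stretch thus carried about as many reads as one of the background, and the difference lay in the number of ends read. The medians of the 4 classes of 345 kb were 26, 26, 21 and 22 reads. Of the 146 ends, 10 had a single read (6.85%, against 7.15% beyond 2 Mb), 34 had 2 to 9, 91 had 10 to 99 and 11 had 100 or more.

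The end with the most reads lay at 93253201, 1468 kb from Jun, and had 175 reads. It belongs to a fragment of 141 bp that the second cutter does not cut. The end at 93625393 (1096 kb) had 171 reads, that at 93661665 (1059 kb) had 163, that at 93339889 (1381 kb) had 141 and that at 93040897 (1680 kb) had 125. Together these 5 ends held 775 reads, 14.8% of the stretch. It took 26 ends to reach 50% of the reads.

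**Figure D3:**
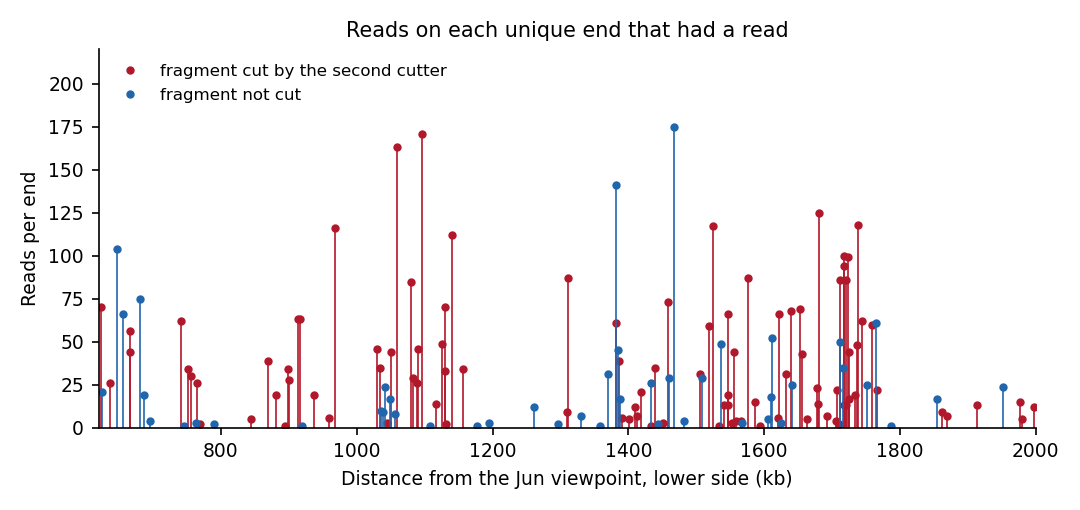
Reads on each of the 146 unique ends with a read (linear scale) against distance from the Jun viewpoint in kb, red where the second cutter cuts the fragment and blue where it does not. Ends with many reads are spread over the stretch, with the highest at 1468 kb (175 reads), and few ends stand between 1160 and 1280 kb or beyond 1760 kb.

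When a fragment is joined to the viewpoint in many cells, both of its ends can be read. Of 114 fragments of the stretch with 2 unique ends and at least 1 read, 2 had a read on both (1.75%, 0.213 to 6.19%). Beyond 2 Mb it was 71 of 4489 (1.58%, 1.24 to 1.99%). The fragments concerned, named after their values were seen, lie at 93003361, with 94 and 13 reads on its ends, and at 93174433, with 66 and 13 reads. The first lies in the window with the most covered ends. The share in the stretch could not be told from that of the background at this depth.

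The last question was whether the fragments of the stretch differed from those elsewhere. They were of ordinary size: 3416 fragments with a median length of 258 bp and a mean of 404 bp, against 260 and 398 bp beyond 2 Mb. The second cutter cut 45.6% of them, against 44.5%. Of the ends with a value, 85.8% had 1 copy in the genome, against 83.2%. The number of unique ends per kb was 3.82 in the nearest 345 kb and 2.91, 2.96 and 2.95 in the other 3 classes, so the nearest had the most ends and the lowest share read.

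The chance of a read depended on the fragment in both places. In the stretch, ends of fragments that the second cutter cuts had a read in 4.76% of cases (3.89 to 5.75%, 2103 ends), and those of uncut fragments in 2.04% (1.50 to 2.71%, 2257 ends). Beyond 2 Mb the shares were 1.76% and 0.663%. The stretch stood at 2.70 times the background for cut fragments (2.23 to 3.28) and at 3.07 times for uncut ones (2.30 to 4.11).

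By length, the share rose from 1.16% for fragments up to 100 bp (0.532 to 2.19%) to 2.71% at 100 to 200 bp, 3.85% at 200 to 400 bp, 4.45% at 400 to 800 bp and 4.75% at 800 to 1600 bp (3.27 to 6.65%). The background rose from 0.477% to 1.39% by 200 to 400 bp and stayed between 1.35 and 1.52% above that. The ratio of stretch to background was 2.44, 2.67, 2.77, 3.12 and 3.52 in these classes, with intervals that overlap. None of the 133 ends of fragments over 1600 bp was read. Taken as 3 counts, this allows a share of up to 2.26%, and the exact interval reaches 2.74%. The 3′ ends, as the file headers name them, had a read in 3.02% of cases (2.34 to 3.82%) and the 5′ ends in 3.68% (2.93 to 4.57%), which overlap.

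**Figure D4:**
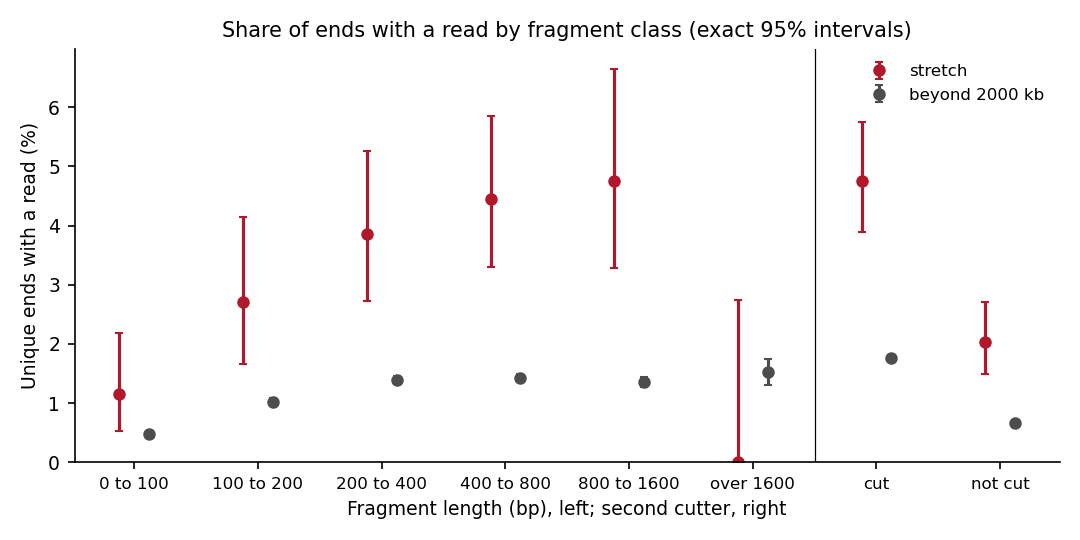
Percentage of unique ends with a read by fragment length in bp (left) and by whether the second cutter cuts the fragment (right), for the stretch (red) and for ends beyond 2000 kb (grey), with exact 95% intervals. The stretch lies above the background in the 5 classes up to 1600 bp and in both classes on the right (4.76 against 1.76% for cut fragments), and has no end with a read over 1600 bp.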

How the data were processed

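Per the labels' protocols, each of the 2 libraries came from chromatin fixed for 10 min in 2% formaldehyde and cut with a pair of 4 bp cutters, with 8 PCRs from 200 ng of template. The submitters' processing notes name the build mm9, and the aligner was not given in the sources used here. Values as deposited are estimated counts of reads per fragment end, not scaled to depth. That unit is read from the values: 72.8% of the Jun values between 0.05 and 10 lie within 0.1 of a whole number. The authors' files also give, in other columns named per the file headers, each end's copies in the genome (1 to 50), fragment length and distances to the second cutter.

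Values were rounded to whole reads, and ends with 1 copy were used. The viewpoint position is that of the end with the highest value. A fragment counts as cut where the distance to the next second-cutter site is shorter than the fragment. A position is the 16 bp bin of the fragment centre. Windows, ends and gaps were named by rule: up to 10 called windows, 5 ends and the 3 longest gaps. Shares have exact Clopper-Pearson 95% intervals, and ratios log-normal ones. Reads per end have a Poisson interval, and the difference between inner and outer part a normal one. A count of 0 is taken to allow 3 counts. The members and lists were chosen with earlier results of these data known. The code was tested on simulated data. No sequence of the stretch is shown, since no mm9 genome was used here. Python 3.11.15, pandas 2.3.3 and scipy 1.17.1 were used.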

Additional observations from a re-analysis of the deposited data

Results flagged for a closer look

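Ends with more than 1 copy in the genome were left out of the values above, but those of the stretch carried reads. Of 719 such ends, 38 had a read (5.29%, exact interval 3.77 to 7.18%), with 297 reads, where a count of 0 would allow up to 0.417%. Beyond 2 Mb, 2730 of 97550 such ends had a read (2.80%, 2.70 to 2.90%). Reads on these ends cannot be assigned to 1 place.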

How the results depend on the processing

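Over 52 values of 7 results under the alternatives, 32 stayed within the interval of the main value and 20 moved. For a count, staying meant within 1.5 times. For reads per end the interval was a Poisson one on the read sum, 1.17 to 1.23. It leaves out PCR copies and the spread among ends, so it is narrow and small changes count as moved. A change of direction was possible only for the ratio, about 1, and for the difference between inner and outer part, about 0. The ratio of stretch to background stayed above 1 in all 13 of its alternatives, from 1.91 with a background of 2 to 10 Mb to 5.73 with 2 to 5 Mb on the lower side, the latter added after seeing the data; it was 3.64 with the lower side beyond 2 Mb. The outer part stayed above the inner part in all 5 alternatives run.

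The share in the stretch was 2.34% for at least 10 reads, 4.20% for any value above 0 and 4.76% for cut fragments. The share beyond 2 Mb was 1.08% for at least 2 reads, 0.877% for at least 10, 1.44% with ends of every multiplicity, 1.32% for fragments of at least 100 bp and 1.76% for cut ones. Reads per end were 1.09 with every multiplicity, 1.39 from 100 bp, 1.89 for cut fragments, 1.26 up to 1900 kb and 1.16 without the top end. Called windows, 25 of 69, were 15 for at least 10 reads, 13 for cut fragments, 14 with the background of 2 to 10 Mb and 13 of 138 with windows of 10 kb. The shares called beyond 2 Mb under these settings were not computed. By construction, fewer ends count as read for the 15, and fewer unique ends enter each window for both counts of 13. For the 14, only the background changed, and with it the call limit. For cut fragments the limit rose too, since their share beyond 2 Mb was 1.76%. The cause of the other moves was not tested. No paired analysis was possible because each viewpoint has 1 library. The number of unique ends per window sets the width of the window intervals, and how depth enters was not tested.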
